A study of Mus musculus with 6 samples.

Results

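The genes described here are 9 members of the Nlrp family of the mouse oocyte, namely Nlrp14, Nlrp2, Nlrp4a, Nlrp4b, Nlrp4c, Nlrp4e, Nlrp9a, Nlrp9b and Nlrp9c. They were picked by symbol from the 25731 genes of the deposited expression table, as oocyte Nlrp genes other than Nlrp5 and Nlrp4f, whose proteins belong to the subcortical maternal complex. RNA was sequenced from 6 pools of 13 zygotes, obtained from B6C3F1 oocytes and CD1 males and lysed at the pronuclear stage. All zygotes were microinjected 15 h after hCG with a dextran tracer (Oregon green, 0.02 mg/mL) and 0.2 mg/mL of mRNA for mCherry-Trim21, and RNA was taken 10 h after injection. In the 3 pools named ZP3 Trim-away, the injected mix also held anti-ZP3 antibody at 1 mg/mL, and in the 3 control pools it held the buffer of that antibody instead. TRIM21 is a ubiquitin ligase that binds the constant part of antibodies, so that an antibody together with extra TRIM21 sends its target protein to the proteasome. The protein targeted here, ZP3, is a glycoprotein of the zona pellucida, and the comparison asks how the transcriptome of the zygote differs once the antibody is present. The control pools therefore received Trim21 mRNA at the same concentration as the treated pools, and they lack any antibody rather than holding an unrelated one.

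Nlrp proteins are built of an N-terminal pyrin domain, a central NACHT domain that binds nucleotides, and a row of leucine-rich repeats. In immune cells, members such as Nlrp3 sense infection or damage and assemble inflammasomes that activate caspase-1. A separate branch of the family has multiplied in rodents and is transcribed mainly in growing oocytes, from which the mRNA and protein pass to the egg and the early embryo before the embryonic genome takes over. In that branch, maternal Nlrp14 is needed for early cleavage and its protein has been linked to the chromatin factor UHRF1, maternal Nlrp2 is needed for normal early development and for imprinting, and knockdown of Nlrp4e was found to impair preimplantation development. Nlrp2 protein has also been described together with the subcortical maternal complex, so its place outside that complex is a matter of definition. Nlrp9b is known besides from the intestine, where it senses viral RNA.

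All 9 genes lie on chromosome 7, where Nlrp9c, Nlrp4a and Nlrp9a are direct neighbours and Nlrp4e stands next to Nlrp5. Their longest coding sequences encode between 863 and 1046 amino acids, from Nlrp4b to Nlrp2. The members are related both in their start regions and in their transcripts. RefSeq start regions on GRCm38.p6 (250 bases before to 50 bases after an annotated start) were at hand for 8 of the 9 genes, the exception being Nlrp14. Nlrp4a, Nlrp4b and Nlrp4c are shown first because 14 bases, TATTAAGGACTAAC, recur in them near the annotated start, in capitals at the right, behind a CAGCTG and a CCAAT, also in capitals. In Nlrp4c the CCAAT is directly preceded by a copy on the other strand, which reads ATTGG, so that the capitals run on.

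Nlrp4a, chr7:26435555-26435635, plus strand: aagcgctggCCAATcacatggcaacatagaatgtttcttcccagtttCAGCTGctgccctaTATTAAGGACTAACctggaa

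Nlrp4b, chr7:10687730-10687807, plus strand: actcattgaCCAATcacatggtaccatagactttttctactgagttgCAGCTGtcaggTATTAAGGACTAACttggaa

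Nlrp4c, chr7:6045134-6045210, plus strand: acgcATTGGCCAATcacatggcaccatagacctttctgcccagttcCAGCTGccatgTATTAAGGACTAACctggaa

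The 14-base stretch, searched on both strands, was found in 4 of 32851 RefSeq start regions (0.0122%), and these 4 were regions of Nlrp4a, Nlrp4b (both of its annotated starts) and Nlrp4c. It was found as the longest run of letters that these genes share, so its rarity is a description and no test. CCAAT on either strand was present in 37.4% of all start regions and CAGCTG in 16.3%, so neither sets these genes apart by itself. Nlrp4a and Nlrp4c were identical at 67 of 77 aligned bases of the stretches shown, Nlrp4b and Nlrp4c at 66 of 77, and Nlrp4a and Nlrp4b at 60 of 78. The start region of Nlrp4e, whose coding sequence is the closest to that of Nlrp4c, held CAGCTG but not the 14 bases.

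Nlrp9a and Nlrp9c, which lie on either side of Nlrp4a, are shown next. A stretch of their start regions is nearly the same sequence on opposite strands of chromosome 7, with 3 copies of CCAAT each, in capitals.

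Nlrp9a, chr7:26534964-26535036, plus strand: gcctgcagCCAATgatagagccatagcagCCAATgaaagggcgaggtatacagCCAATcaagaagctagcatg

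Nlrp9c, chr7:26403731-26403803, minus strand: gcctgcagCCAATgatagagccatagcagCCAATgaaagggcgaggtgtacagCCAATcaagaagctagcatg

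These 73 bases agreed at 72 positions. Counting both strands, 3 or more copies of CCAAT were present in 3.37% of all start regions. The region of Nlrp9b, the remaining Nlrp9 gene, held no CCAAT. Of the remaining motifs searched on both strands, CANNTG (N is any base, so CAGCTG is included) was present in 72.3% of all regions, TAATTG in 8.00% and TATAAA in 13.6%, and among the 8 genes with a start region TAATTG was found only in Nlrp9a and Nlrp9b and TATAAA only in Nlrp9b. A match is a description of the letters and says nothing of a bound factor.

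The libraries were primed on poly(A) tails, so the end of each transcript is the second feature shown. A poly(A) signal, AATAAA or ATTAAA, lay within the last 50 bases of the annotated transcript in 7 of the 9 genes, against 75.0% of 17987 genes (neither was found in Nlrp14 or Nlrp4a). The 3 Nlrp9 transcripts end almost alike, as the 30 bases around the signal, in capitals, show.

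Nlrp9a: aagcacattcAATAAAcactaagcatgtgt

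Nlrp9b: aagcacatttAATAAAcactaagcgtgttt

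Nlrp9c: aagcacattaAATAAAcactaagcatgttt

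The element TTTTAT or TTTTAAT, which in oocytes recruits the factor that lengthens poly(A) tails, was present in the last 150 bases of Nlrp4a and Nlrp4c, or 2 of 9 genes, against 23.4% of the 17987.

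Relatedness also decides which reads could be counted. Reads were 72 bases long, and the counting program leaves out reads that match several places. In Nlrp14, Nlrp2 and Nlrp4b, 0 of the 72-base windows of the transcript recurred in another annotated gene. In Nlrp4e, 21.9% recurred, most of them in the predicted genes Gm16443, Gm4541, Gm8486, Gm8685 and Gm8728, and 92 of them in Nlrp4c. In Nlrp4c the share was 4.04%, in Nlrp9b 3.36%, in Nlrp9a 2.48%, in Nlrp9c 1.75% and in Nlrp4a 0.454%. The predicted genes among these that are in the table were listed at 0.275 RPKM or less in every library. Nlrp4e had the largest share of such windows among the 9, and a level that is too low for it cannot be told apart from a true one. Coding sequences were 93.9% identical between Nlrp4c and Nlrp4e, 87.7% between Nlrp9a and Nlrp9c, and 63.0% or less between Nlrp14 and any of the others. Exons of Nlrp2 overlap those of Gm18757 on the opposite strand over 105 bases, and exons of Nlrp9b overlap those of Gm18877 on the same strand over 136 bases.

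Levels are given in RPKM, which are reads scaled to exon length in kilobases and to library size in units of 1e+06 reads. Libraries held between 15291000 and 20005724 reads, and the members stood on 392 to 29710 reads per library. At 1 kb of exon, the 3 reads that a count of 0 still allows correspond to 0.15 to 0.196 RPKM. The injected Trim21 mRNA took 14.6% to 18.1% of the reads in the controls and 9.12% to 11.0% in the ZP3 Trim-away pools, without overlap although the injected concentration was the same, and Zp3 mRNA had control values of 42.3 ± 12.3 RPKM and treated values of 52.7 ± 6.21 RPKM (SD, n = 3 each). The antibody acts on protein, so neither value checks the depletion. Of 10 oocyte markers in the table, the 2 highest by mean were Dppa3, between 3709 and 6552 RPKM, and H1f8, between 2306 and 3290 RPKM. The lowest were Mos, at 3.02 to 8.20 RPKM, and Zp1, at 8.89 to 36.9 RPKM. Abundant oocyte transcripts go with material derived from oocytes, and the pronuclear stage was not tested by these markers. Of 12 markers of cumulus and granulosa cells, 10 were in the table and 5 could be tested. Their summed level was 8.44 to 20.1 RPKM in the controls and 19.0 to 29.9 RPKM in the ZP3 Trim-away pools, with the defining markers Foxl2 and Fshr at 0.350 RPKM or less. Inha and Cyp11a1 were listed at 0 in all controls and lay at 2.32 to 7.49 and 0.489 to 3.56 RPKM in the treated pools. Tnfaip6 was also higher without overlap (at most 1.68 RPKM in the controls, 3.57 to 6.95 RPKM in the treated pools), whereas Cyp19a1 was lower without overlap (8.04 to 10.0 against 4.60 to 6.43 RPKM). This sum was higher in the treated pools apart from a slight overlap, and its part in the members' values was not tested. By limma 0 of the 5 passed, and 3 had an unadjusted p under 0.05, as did 19.5% of all genes tested. Of 7 leukocyte markers, 4 were in the table, and they summed to 3.54 RPKM or less. Of 3 oviduct markers only Pax8 was in the table, at 0.0165 RPKM or less. Of 5 sperm markers, 2 were in the table, and they summed to 1.61 to 3.19 RPKM in the controls and 1.10 to 1.63 RPKM in the treated pools. The labels do not say whether the pools were separate collections, so an SE or a p measures the spread between these pools. In a pool, more mRNA per zygote and more zygotes with intact mRNA cannot be told apart. As the libraries were primed on poly(A) tails, longer tails cannot be told apart from either.

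The plot of levels by library shows that Nlrp14 was the highest of the 9 in 6 of 6 libraries and Nlrp4c the lowest in 6 of 6. The mean over all libraries was 401 ± 105 RPKM for Nlrp14 (SD, n = 6), which 73 genes of the table exceeded. Below it stood 4 genes close in level. Nlrp9c, at 269 ± 35.9 RPKM, was above Nlrp4a, at 266 ± 33.1 RPKM, in 3 of 6 libraries. Nlrp4a was above Nlrp9b, at 251 ± 29.7 RPKM, in 4 of 6, and Nlrp9b was above Nlrp9a, at 241 ± 44.3 RPKM, in 4 of 6, so that no neighbours in this group kept 1 order throughout. Nlrp9c was nevertheless above both Nlrp9b and Nlrp9a in 6 of 6 libraries. The lower 4 genes kept their order in every library. Nlrp4b came next with 135 ± 20.9 RPKM, then Nlrp4e with 72.7 ± 13.7 RPKM, Nlrp2 with 39.0 ± 15.5 RPKM and Nlrp4c with 12.2 ± 4.48 RPKM. The family thus spanned a 32.8-fold range, and even Nlrp4c lay above 88.2% of the genes in the table.

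**Figure D1:**
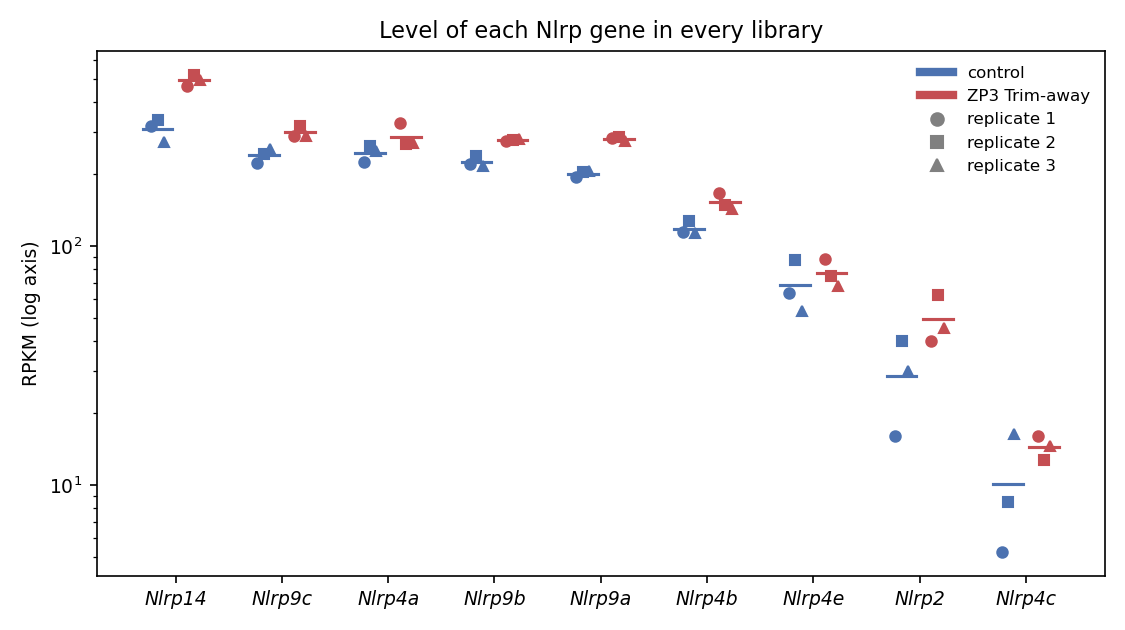
RPKM (log axis) of the 9 genes in the 3 control libraries (blue) and the 3 ZP3 Trim-away libraries (red), with marker shape for the replicate number and a horizontal line for the group mean. Genes are ordered by their mean over the 6 libraries, and the groups do not overlap in Nlrp14, Nlrp9c, Nlrp4a, Nlrp9b, Nlrp9a and Nlrp4b.

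The place of Nlrp9c in this order depended on the length used. RPKM here divides by the union of all annotated exons, which for Nlrp9c is 5935 bases, whereas the transcript with its longest coding sequence is 3216 bases long, a ratio of 1.85. For the other genes the ratio lay between 1.01 in Nlrp4e and 1.35 in Nlrp4b. Scaled to that transcript, Nlrp9c reached 497 ± 66.2 on the same scale (SD, n = 6) and stood above Nlrp14, at 434 ± 114, in 5 of 6 libraries, while the remaining 7 genes kept their ranks. Comparisons of one gene between groups do not depend on this choice.

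**Figure D2:**
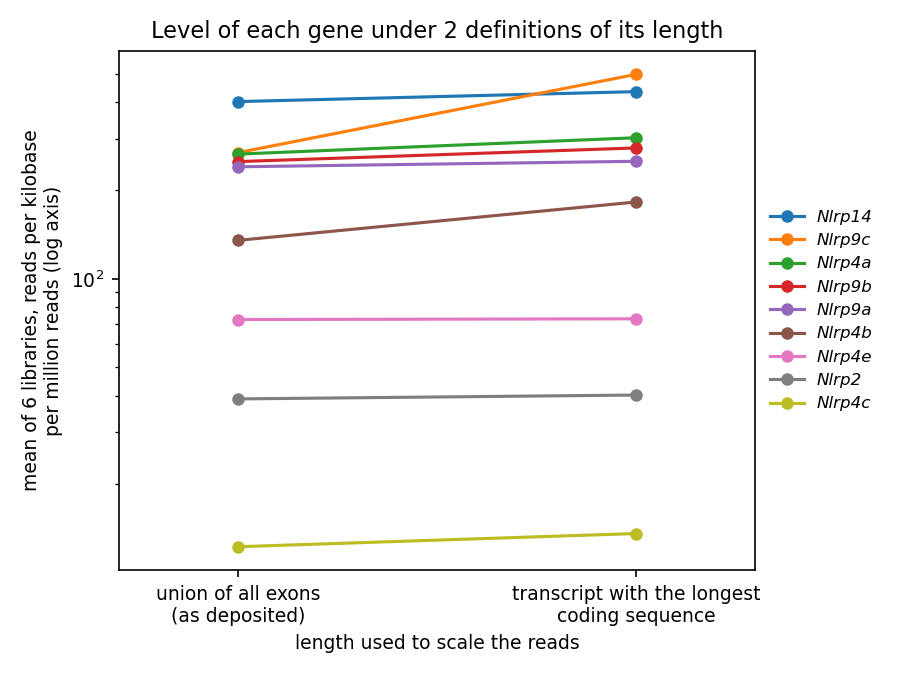
Mean level over 6 libraries (reads scaled to length in kilobases and to library size as in RPKM, log axis) when reads are scaled to the union of exons, left, or to the transcript with the longest coding sequence, right. The line of Nlrp9c crosses that of Nlrp14, from 269 to 497, and no other lines cross between ranks.

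Between the groups, all 9 genes had a higher mean in the ZP3 Trim-away pools, with differences from 0.19 to 0.83 on the log2(RPKM + 1) scale and a median of 0.37, while the median over the 9965 genes tested was 0.22. A positive difference was found in 67.3% of the genes tested, so the common direction is shared with the larger part of the transcriptome. The groups did not overlap in 6 of 9 members, against 20.3% of all genes tested with every treated library above every control library, and 26.7% without overlap in either direction. In the limma fit over all genes with Benjamini-Hochberg adjustment, 1 of 9 passed at 0.05, and 0.592% of the genes tested passed in the same direction (0.632% in either), while 6 of 9 had an unadjusted limma p under 0.05, as did 19.5% of the genes tested. With the control columns as deposited, which share replicate 1 and so vary less, 8 of 9 passed, against 25.5% of the genes tested with a higher level. The genes were chosen with these values known, so the counts are a description and nothing is read from their distance to the background.

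Nlrp14, the gene tied to early cleavage, had 317, 336 and 272 RPKM in control replicates 1, 2 and 3. In ZP3 Trim-away replicates 1, 2 and 3 it had 466, 520 and 495 RPKM. Every treated pool was well above every control pool, and the gap between the highest control and the lowest treated value was wider than the spread within either group. The mean went from 308.4 ± 32.8 to 494 ± 27.0 RPKM (SD, n = 3), a 1.60-fold higher level, with a log2 difference of 0.68 ± 0.11 (SE) and a limma adjusted p of 0.0368. This was the only member past the threshold, 41st by p among the 9965 genes. The call was lost in 11 of 16 other settings, namely without each single ZP3 Trim-away replicate, with pseudocount 0.1, with no filter, with a prior without trend, with the replicate block and with the 4 other scalings, which lowered the difference to between 0.45 and 0.57. Over the 16 settings the limma adjusted p ranged from 0.000707 to 0.271.

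Nlrp9a was next by p. Its control values were 193, 203 and 205 RPKM, and its ZP3 Trim-away values were 282, 286 and 275 RPKM. The pools of each group lay close together, with a coefficient of variation of 3.09% in the controls and 1.98% in the treated pools, and a wide gap between them. The difference of 0.48 ± 0.09 did not pass in the fit over all genes (limma adjusted p = 0.0519) and passed when genes under a mean of 10 RPKM were left out (adjusted p = 0.0256, range over all settings 0.00115 to 0.289).

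The near copies of Nlrp9a had smaller mean differences. Nlrp9b, the member known from the intestine, had 220, 237 and 216 RPKM in the controls, against 273, 278 and 280 RPKM after ZP3 Trim-away. Nlrp9c had 222, 242 and 253 RPKM in the controls, against 289, 318 and 289 RPKM after ZP3 Trim-away. Neither gene's groups overlapped, although the steps were small. The log2 differences were 0.30 ± 0.09 for Nlrp9b and 0.32 ± 0.10 for Nlrp9c (limma adjusted p of 0.133 and 0.137), and neither passed. With median ratio scaling they were 0.10 and 0.12, where the median of all genes was 0.05 in place of 0.22. The ratio of Nlrp9a to Nlrp9c was 0.871, 0.838 and 0.809 in the controls and 0.975, 0.897 and 0.950 in the treated pools. This ratio was higher in every treated library than in every control library, by a narrow margin (0.897 against 0.871), and the cause was not tested. The ratios of Nlrp2 to Nlrp14 and of Nlrp4c to Nlrp4e, also computed, overlapped between the groups. No such count was made for ratios of other genes, and by RPKM 26.7% of all genes tested did not overlap in either direction. A ratio within a library does not depend on its total.

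**Figure D3:**
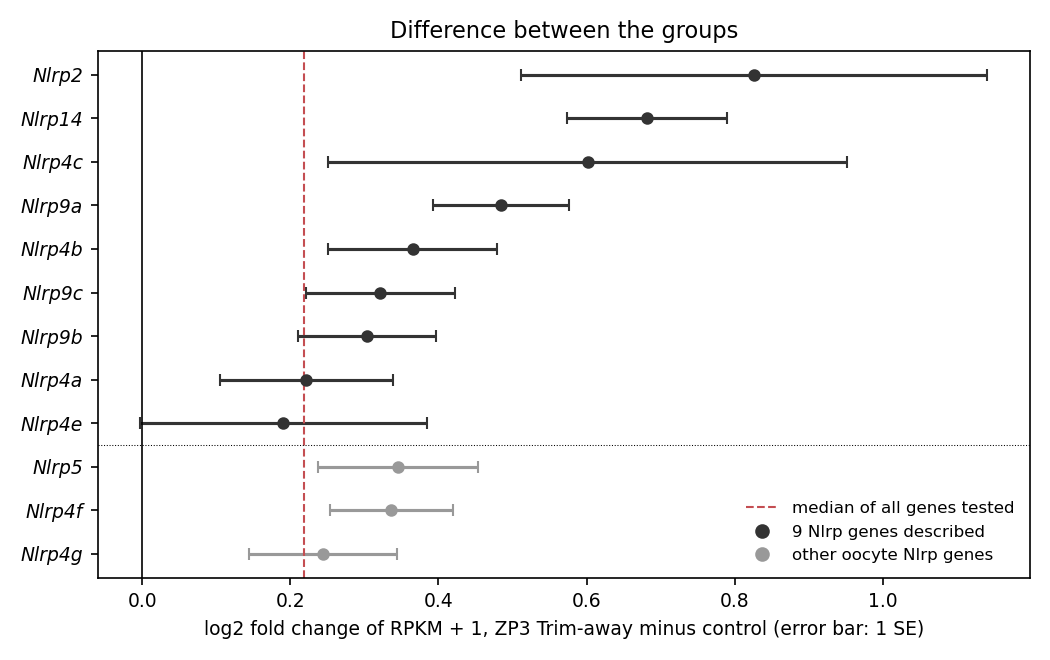
Log2 fold change of RPKM + 1, ZP3 Trim-away minus control, with 1 SE from the limma fit, for the 9 genes (black) and for Nlrp5, Nlrp4f and Nlrp4g (grey). The dashed line is the median of all genes tested, 0.22, and 8 of the 9 genes lie to the right of it, Nlrp4a only just.

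The Nlrp4 genes, whose human relative NLRP4 is known for dampening interferon signalling, were less uniform. Nlrp4b had 114, 127 and 113 RPKM in the controls, against 166, 148 and 143 RPKM after ZP3 Trim-away. Its groups did not overlap, and the difference was 0.37 ± 0.11 (limma adjusted p = 0.137). Nlrp4a had 225.1, 261.2 and 249.1 RPKM in the controls, against 325, 267 and 268 RPKM after ZP3 Trim-away. Here the separation rested on a narrow margin, since treated replicates 2 and 3 were only just above the highest control, and replicate 1 alone stood apart. The difference of 0.22 ± 0.12 equalled the median of all genes (limma adjusted p = 0.341), and it was 0.13 without ZP3 Trim-away replicate 1.

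Nlrp4e had 63.8, 87.7 and 53.6 RPKM in the controls, against 88.4, 74.7 and 68.0 RPKM after ZP3 Trim-away. The second control exceeded all but one of the treated pools, and the groups overlapped. The difference was 0.19 ± 0.19 (limma adjusted p = 0.630). It was the only member whose sign turned, to -0.0071 with median ratio scaling, to -0.0026 with quantile normalization and to -0.049 with the trend over exon length removed. Nlrp4c, its closest relative in coding sequence, had 5.27, 8.50 and 16.4 RPKM in the controls, against 16.1, 12.7 and 14.5 RPKM after ZP3 Trim-away. The third control was the highest of all 6 libraries, and the groups overlapped through it alone, the other controls lying below every treated pool. The controls varied by 57.1% where counting alone gives 3.68%. The difference of 0.60 ± 0.35 (limma adjusted p = 0.385) became 0.26 without control replicate 1 and 0.99 without control replicate 3. Of the 3 Nlrp4 genes that share the 14-base stretch, only Nlrp4c had overlapping groups, and whether their differences were unequal was not tested.

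Nlrp2, needed in the oocyte for normal development and imprinting of the offspring, had the highest mean difference and a wide spread. Its control values were 15.99, 40.16 and 30.01 RPKM, and its ZP3 Trim-away values were 39.98, 62.41 and 45.55 RPKM. The lowest treated pool and the highest control were level, so the groups touched. The difference was 0.83 ± 0.31 (limma adjusted p = 0.201), and 0.47 without control replicate 1, the library in which Nlrp2 and Nlrp4c were both lowest.

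The spread between control pools was above counting error in high and low genes alike. The coefficient of variation of the controls was 42.2% in Nlrp2 and 25.6% in Nlrp4e against 2.30% and 1.51% from counting, it was 10.6% in Nlrp14 against 0.699%, and it was 3.09% to 6.65% in the 3 Nlrp9 genes against 0.615% to 0.876%. In 7 of 9 members the treated pools varied less than the controls, the exceptions being Nlrp4a and Nlrp4b, and over all genes tested the median SD of log2(RPKM + 1) was likewise smaller in the treated pools, 0.20 against 0.44.

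Summed over the 9 genes, the controls held 1377, 1543 and 1409 RPKM, and the ZP3 Trim-away pools held 1947, 1966 and 1879 RPKM. All treated pools were above all controls, 1.34-fold in the mean. As a share of all reads the family took 0.583% to 0.652% in the controls and 0.786% to 0.824% in the treated pools. Part of this difference goes with the smaller share of Trim21 reads, since among reads outside Trim21 the family took 0.709% to 0.779% and 0.883% to 0.907%, a 1.22-fold difference in place of 1.32-fold. The groups still did not overlap on that scale. All genes tested were also higher in the median there, by a log2 difference of 0.13, against 0.26 for the median member. With median ratio scaling these medians were 0.05 and 0.17.

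The composition of the family is free of the library total, and most shares overlapped between the groups. Nlrp14 made up 23.0%, 21.8% and 19.3% of the summed RPKM in the controls and 24.0%, 26.5% and 26.4% in the ZP3 Trim-away pools. The share of Nlrp9b moved the other way, from 16.0%, 15.4% and 15.3% to 14.0%, 14.1% and 14.9%, although its RPKM were higher in the treated pools. The shares sum to a fixed total, so a rise in any of them lowers the rest. These were the 2 of 9 shares whose groups did not overlap. No such count was made for shares of other genes, and by RPKM 26.7% of all genes tested did not overlap in either direction. The mean share of Nlrp14 was 21.4% ± 1.88 in the controls and 25.6% ± 1.42 in the treated pools (SD, n = 3). Nlrp4a went from 17.0% ± 0.665 to 14.8% ± 1.65 with an overlap, because ZP3 Trim-away replicate 1 kept a share of 16.7%. Nlrp9a stayed between 13.2% and 14.6% in all 6 libraries.

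**Figure D4:**
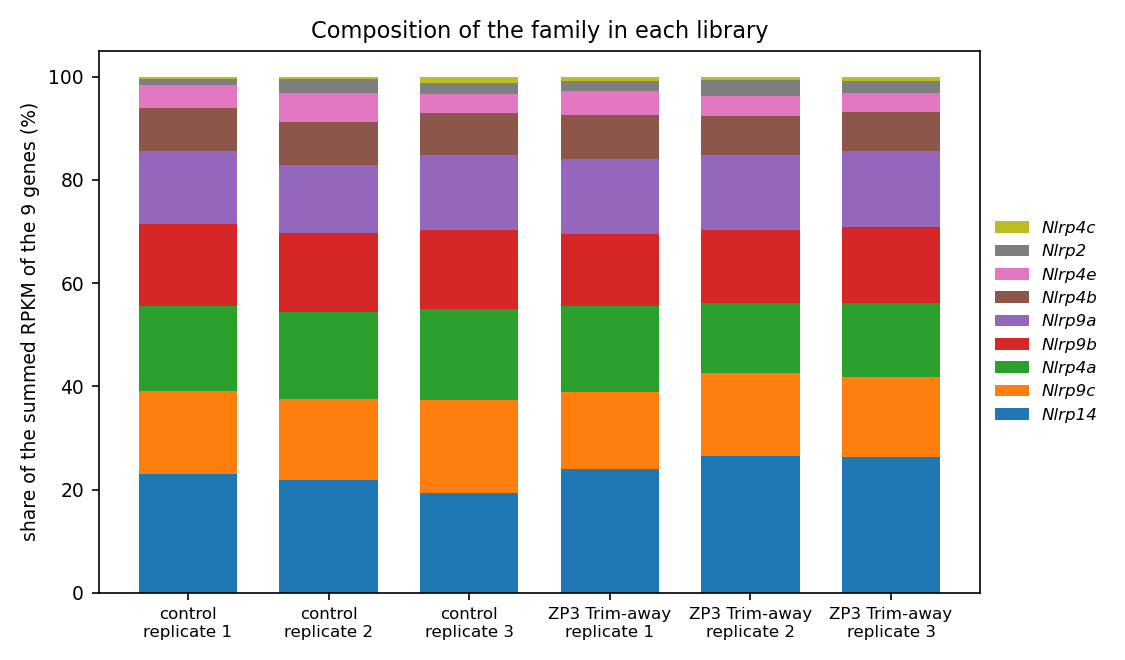
Share of each gene in the summed RPKM of the 9 genes (%), stacked for each of the 6 libraries. The lowest segment, Nlrp14, spans 19.3% to 23.0% in the controls and 24.0% to 26.5% in the ZP3 Trim-away libraries.

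The other Nlrp genes of the oocyte also had higher means in the treated pools, and 0 of these 3 passed. Nlrp4f, a member of the subcortical maternal complex, was at 884 ± 53.4 RPKM in the controls and 1116 ± 24.6 RPKM after ZP3 Trim-away, a difference of 0.34 ± 0.08 (limma adjusted p = 0.0831). Nlrp5, which is required in the mother for cleavage of the embryo, went from 347 ± 41.8 to 440 ± 10.1 RPKM (0.35 ± 0.11, limma adjusted p = 0.137). Nlrp4g, the remaining oocyte gene of the family, went from 208 ± 15.6 to 246 ± 5.22 RPKM (0.24 ± 0.10, limma adjusted p = 0.228). These 3 genes had groups that did not overlap, as most of the 9 did, and as did 26.7% of all genes tested in either direction. The summed level of the 9 genes relative to Nlrp5 plus Nlrp4f was 1.06, 1.25 and 1.21 in the controls and 1.23, 1.26 and 1.23 in the treated pools, and the groups overlapped. The ratio of Nlrp14 to Nlrp5 was 0.811, 1.09 and 0.790 against 1.07, 1.15 and 1.14, with an overlap through control replicate 2. Neither ratio separated the 9 genes from the complex beyond the spread between libraries.

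Of 21 other genes of the NLR family, including Nlrp5 and Nlrp4f, 18 were in the table and 6 could be tested. In the limma fit 0 of 6 passed, and 3 had an unadjusted p under 0.05, as did 19.5% of all genes tested. A positive difference was found in 6 of 6, against 67.3% of all genes tested, with a median of 0.34 against 0.22. The Nlrp sensors of the immune branch were near the limit of detection. Nlrp3 was at 0.776 RPKM in 1 control library and listed at 0 in the other libraries. Nlrp1a, Nlrp1b, Nlrp6, Nlrp10 and Nlrp12 were at 0.610 RPKM or less. Outside the oocyte branch the highest was Nlrc4, an inflammasome scaffold, at 4.30 to 15.3 RPKM, below all 9 members in the mean. The sensors Naip1 and Nod2 were also above that limit, at 4.44 to 9.55 and 0.895 to 12.4 RPKM. Of 12 genes of the inflammasome machinery, 8 were in the table and 3 could be tested, with 0 passing by limma (1 at an unadjusted p under 0.05). Among them Casp8, an initiator caspase, was at 22.5 ± 3.62 and 26.3 ± 3.84 RPKM, Txnip, a thioredoxin-binding protein, at 39.0 ± 3.46 and 28.4 ± 4.54 RPKM, and the effector Casp1 was at 0.104 RPKM or less.

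Of 7 genes of the subcortical maternal complex, 6 could be tested and 0 passed by limma (5 at an unadjusted p under 0.05, the share over all genes being 19.5%). The difference was positive in 5, against 67.3% of all genes tested, with a median of 0.34 against 0.22. Zbed3, the second highest of them after Nlrp4f, was at 408 ± 87.6 and 399 ± 253 RPKM. Ooep had the largest difference of the 6 tested, from 108 ± 19.4 to 198 ± 27.9 RPKM (0.87 ± 0.16, limma adjusted p = 0.0519). Of 4 genes whose products have been linked to Nlrp14 or Nlrp9b, 2 could be tested and 0 passed by limma (0 also at an unadjusted p under 0.05). Uhrf1, the chromatin factor linked to Nlrp14, was at 125 ± 16.0 RPKM in the controls and 134 ± 16.0 RPKM after ZP3 Trim-away, a difference of 0.10, and Dnmt1, the maintenance DNA methyltransferase that UHRF1 recruits, was at 43.8 ± 4.37 and 39.7 ± 2.43 RPKM. Values of Uhrf1 overlapped between the groups and those of Nlrp14 did not, and a difference between these 2 genes was not tested.

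The genes most like Nlrp14 across the 6 libraries were sought by the root mean square difference of log2(RPKM + 1) profiles, each centred on its own mean, over 3458 genes averaging 10 RPKM or more. The nearest 5 were Slc25a5, a mitochondrial ADP/ATP carrier (0.0375), Kpna2, an importin (0.0385), Eloc, elongin C (0.0409), Elof1, a transcription elongation factor (0.0523), and Skp1, a subunit of SCF ubiquitin ligases (0.0666). Kpna2, for example, went from 296 ± 23.7 to 483 ± 10.9 RPKM and Skp1 from 347 ± 34.5 to 582 ± 5.22 RPKM. The nearest member was Nlrp9a at rank 144, with a distance of 0.150, followed by Nlrp4b at rank 371, and Nlrp4c was the farthest at rank 2702. The members are few among the 3458 genes, so the nearest 5 were likely to be other genes, and nothing about the family is read from that.

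**Figure D5:**
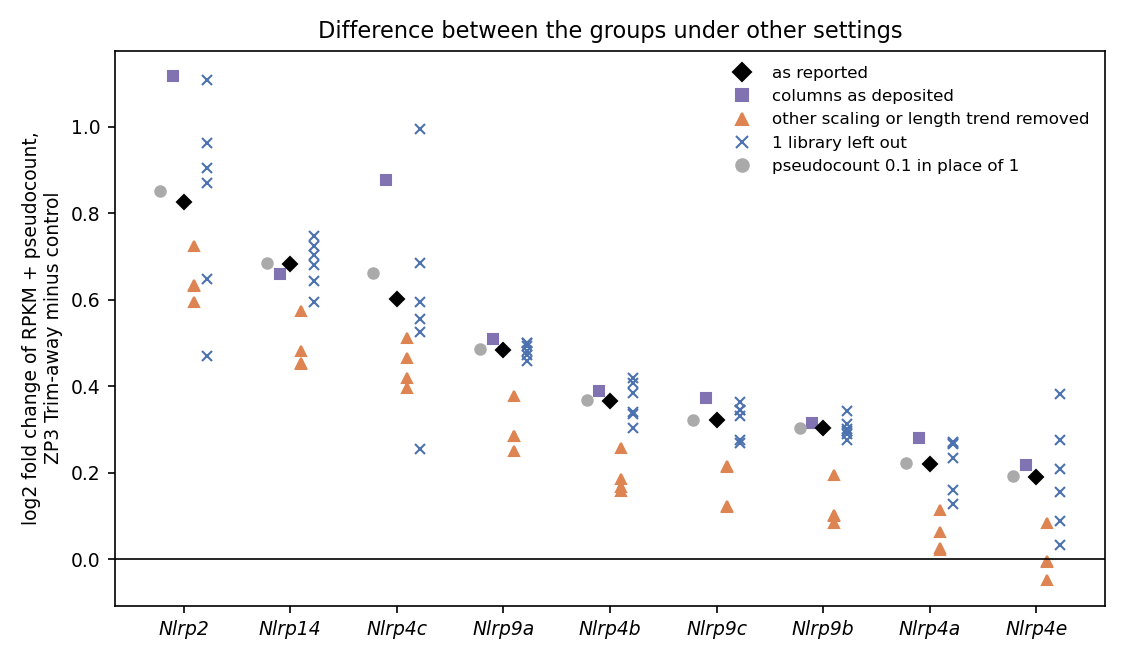
Log2 fold change of RPKM + pseudocount, ZP3 Trim-away minus control, of each gene as reported (black diamonds), with the columns as deposited (squares), with other scalings or the length trend removed (triangles), with pseudocount 0.1 (circles) and with 1 library left out (crosses). Scalings lowered the values of all 9 genes, and Nlrp4e was the only one to fall below 0.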

How the data were processed

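Per the labels and the study's methods, cDNA was primed by oligo-dT in a low-input protocol and read as 72 bases from one end, and the tools were FastQC 0.11.9, Trimmomatic, HISAT2 (alignment), SAMtools and htseq-count (counting), most without a stated version. The labels name build GRCm39 and the study's methods GRCm38. The authors deposited RPKM values (reads relative to the length of the exons and the size of the library) for 25731 genes. Control columns 2 and 3 were read as means with column 1, since 2059 and 2090 genes were at exactly 0.5 times that column and no gene was lower. Each was separated as 2 times the column minus column 1, which gave 0 negative values. The columns as deposited are an alternative. Multiplying RPKM by exon length (GENCODE M21, GRCm38) and a fitted total gave whole reads, within 0.01, for 95.0% to 96.0% of values and for all 9 members in all libraries. The depth in the text is that fitted total. Intervals and floors cover counting error only.

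Groups were taken from the labels. Limma 3.58.1 in R 4.3.3 was run on log2(RPKM + 1) with a trended prior, two-sided, for the 9965 genes that averaged 1 RPKM or more, and p-values were adjusted by Benjamini-Hochberg over all of them. The fit was tested on simulated data. RPKM are not counts, so no count model was used. Fold changes on this scale understate those of low genes. Coding sequences and 72-base windows came from GENCODE M21 and start regions from RefSeq, handled with Python 3.11.15, pandas 2.3.3, numpy 2.4.6 and Biopython 1.88, and figures were drawn with matplotlib 3.10.9.

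The members and gene lists were chosen with earlier results of these data known. Named were all members, of each list the genes that passed and the highest by mean level, and the 5 genes nearest to Nlrp14. Nlrp4g, Nlrc4, Naip1, Nod2, Casp1, Ooep, the genes of the immune branch, Mos, Zp1, Pax8, Foxl2 and Fshr were named after their values were seen.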

Additional observations from a re-analysis of the deposited data

How the results depend on the processing

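In 144 repeats of the members' differences under 16 other settings, 122 kept their direction and side of the threshold, 8 passed and 11 no longer passed. In 3 repeats the sign turned, all in Nlrp4e (-0.0071 with median ratio scaling, -0.0026 with quantile normalization, -0.049 with the length trend removed). Over all genes 63 passed (59 up), and 3707 with the columns as deposited, 19 with pseudocount 0.1, 0 with no filter (3323 at an unadjusted limma p under 0.05), 368 with a mean of at least 10 RPKM, 12 with median ratio scaling (9 of them up in the treated pools), 24 with quantile normalization (18 up), 19 with Trim21 left out of the totals, 36 with the length trend removed (14 up), 11 with a prior without trend, 125 to 300 without 1 control, and 0 without 1 ZP3 Trim-away library (1100 to 1238 unadjusted). Of the members, 1 passed as reported, 8 with the columns as deposited, 2 with a mean of at least 10 RPKM, 1 with any single control left out and 0 under each of the other settings. The cause was not tested, except that deposited control columns share replicate 1 and so vary less. The median difference of all genes was 0.22, and 0.05, -0.01, 0.13 and 0.01 under the 4 scalings in the order above. That of the members lay between 0.16 and 0.42. With the replicate number as a block, 0 genes (1733 unadjusted) and 0 members passed (limma adjusted p of Nlrp14 0.0699). Deviations of same-numbered libraries from their group means correlated at -0.06, 0.02 and -0.05 over all genes tested. Whether equal numbers pair the pools cannot be settled from 3 pools a group. The ranks by transcript length (Nlrp9c 1, Nlrp14 2) and the shares by reads were added after the data were seen. Counting error of the members was 3.68% or less, and 3 pools a group limit every test.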
